A study of Danio rerio with 6 samples.

Results

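The genes described here load glutamate or GABA into synaptic vesicles or make GABA, and so mark the transmitter that a neuron releases. There are 7 of them among the 31901 genes of the deposited table, and each was taken where the gene symbol in the table equalled a listed symbol: slc17a6a, slc17a6b, slc17a7a, slc17a7b, gad1b, gad2 and slc32a1. They were measured by RNA-seq in 3 pools of wild-type zebrafish larvae and 3 pools of larvae homozygous for a mutation in dscaml1, a gene for a DSCAM-family adhesion protein of the cell surface. The mutant allele, vt1, lost a few bases, which puts the reading frame out and leads to an early stop codon. All pools held siblings from crosses of heterozygous carriers on a mixed AB and TL background, untreated, at 3.5 to 4 days post-fertilization (dpf), with 6 to 11 larvae per pool. The labels name the whole animal, whereas the methods describe RNA from the anterior part of each larva, so it is not known here which was sequenced. In such bulk samples, fewer neurons of a class and less RNA per neuron cannot be told apart.

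Most fast excitation in the vertebrate brain is carried by glutamate and most fast inhibition by GABA and glycine. Vesicular glutamate transporters of the SLC17 family fill synaptic vesicles with glutamate: slc17a6a and slc17a6b are the zebrafish copies of VGLUT2, and slc17a7a and slc17a7b those of VGLUT1. GABA is made from glutamate by glutamate decarboxylase, of which gad1b encodes the GAD67 form and gad2 the GAD65 form. It is then loaded into vesicles by the transporter that slc32a1 encodes, which also carries glycine, so that slc32a1 marks both kinds of inhibitory neuron.

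The values are normalized counts, the reads of a gene divided by 1 size factor per library. The reads recovered from them came to 21863982 to 23516860 per wild-type library and 18725190 to 20476688 per mutant library. The lengths of the transcripts were not used here, so levels are compared between libraries and not between genes. dscaml1 itself was read at 333, 395 and 375 normalized counts in the wild-type libraries (replicates 1, 2 and 3) and at 399.6, 336 and 355 in the mutant libraries, and since the allele is a small deletion, this level checks no genotype label. Replicate 2 of both genotypes stood apart from replicates 1 and 3: the summed level of 10 skeletal muscle genes was 169826 and 116762 normalized counts in the wild-type and mutant replicates 2, against 298699 to 362667 in the other 4 libraries. The test was limma on log2 values (pseudocount 1) of the 21302 genes whose mean was at least 5. It held genotype and a term that sets replicate 2 apart, which follows earlier processing of these files. Results are also given without both replicate 2 libraries. Fold changes are on this log2 scale, as mutant against wild type, and p-values were adjusted over all genes tested (Benjamini-Hochberg).

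None of the 4 glutamate transporters passed the adjusted threshold of 0.05, and slc17a6b had the lowest p of them. slc17a6b (ENSDARG00000041150, chromosome 7 of GRCz11 from 32811907 to 32833255) measured 788, 749 and 883 normalized counts in the wild-type libraries, given here and below in the order of replicates 1, 2 and 3, and 1224, 831 and 1179 in the mutant libraries. Mutant replicates 1 and 3 lay above every wild-type library, and mutant replicate 2 lay within the wild-type range. The wild-type mean was 807 ± 68.8 (SD, n = 3) and the mutant mean 1078 ± 215 (SD, n = 3). The log2 fold change was 0.40 (standard error 0.12, 95% interval 0.12 to 0.67), with an unadjusted p of 0.0103 and an adjusted p of 0.217 from limma, so it did not pass.

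The paralog slc17a6a (ENSDARG00000001127, chromosome 25 from 35250976 to 35271284) stood at 411, 370.1 and 373 normalized counts in the wild-type libraries, and the mutant libraries held 464, 319 and 374. The highest and the lowest of the 6 libraries were both mutant, and the groups overlapped. Its means were 385 ± 22.7 and 386 ± 73.1 (SD, n = 3 each). limma gave a log2 fold change of −0.01 with a standard error of 0.14 and an adjusted p of 0.982. The 95% interval ran from −0.33 to 0.31. The 0.40 measured for slc17a6b lay outside it, but the interval of slc17a6b (0.12 to 0.67) overlapped it. Without both replicate 2 libraries the slc17a6a interval was −0.32 to 0.50. Whether the fold changes of these paralogs differ was not tested.

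**Figure D1:**
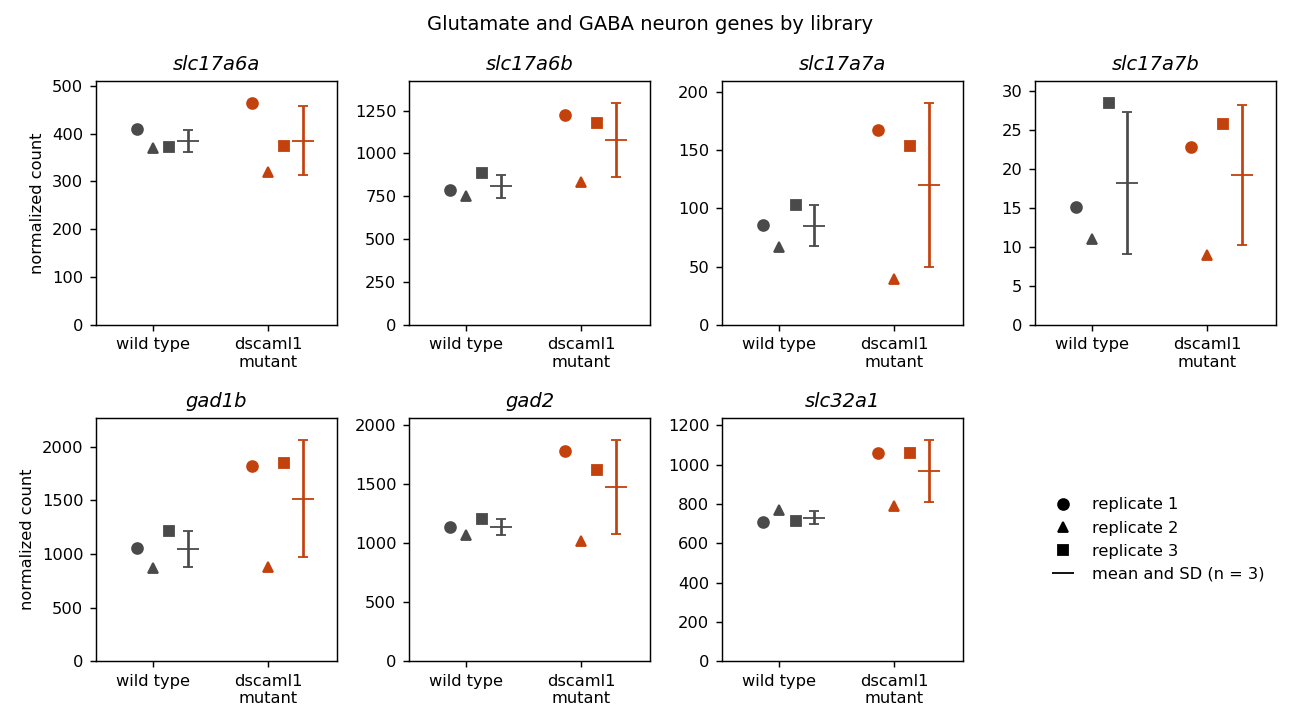
Normalized counts of the 7 genes in each library, with circles, triangles and squares for replicates 1, 2 and 3 and a bar for the mean and SD of 3 pools; each panel has its own axis from 0. For gad1b, gad2 and slc17a6b, mutant replicates 1 and 3 lie above every wild-type library while mutant replicate 2 lies at the wild-type level; for slc32a1 all 3 mutant libraries lie above the wild-type ones, replicate 2 by the least.

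The VGLUT1 copies were read at lower depth. slc17a7a (ENSDARG00000016480, chromosome 3 from 16612574 to 16654088), which in zebrafish is expressed by the granule neurons of the cerebellum among others, gave 86.0, 66.9 and 103 normalized counts in the wild-type libraries, whereas the mutant libraries gave 167, 39.0 and 154. The mutants held the highest levels, in replicates 1 and 3, and the lowest, in replicate 2. With means of 85.2 ± 18.0 and 119.9 ± 70.4 (SD, n = 3 each), the log2 fold change was 0.25 (standard error 0.30, 95% interval −0.45 to 0.96, adjusted p = 0.756 from limma). slc17a7b (ENSDARG00000090106, chromosome 24 from 38557989 to 38579066) gave 15.1, 11.0 and 28.4 normalized counts in the wild-type libraries and 22.7, 8.94 and 25.8 in the mutant libraries, from 14 to 48 reads per library. Counting error alone was 14.4% to 26.7% of each of these values, and the groups overlapped (log2 fold change 0.05, 95% interval −0.68 to 0.79, adjusted p = 0.959 from limma).

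All 3 genes of GABA synthesis and loading had higher means in mutants, by 0.34 to 0.47 on the log2 scale, and none passed the adjusted threshold. gad1b (ENSDARG00000027419, chromosome 6 from 3827751 to 3863452) reached 1056, 873 and 1214 normalized counts in the wild-type libraries and 1818, 884 and 1847 in the mutant libraries. Mutant replicates 1 and 3 were above the highest wild-type library, and mutant replicate 2 was next to the lowest. The means were 1048 ± 170.3 and 1516 ± 548 (SD, n = 3 each), and the log2 fold change was 0.47 (standard error 0.15, 95% interval 0.11 to 0.82, unadjusted p = 0.0161, adjusted p = 0.250 from limma).

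gad2 (ENSDARG00000015537, chromosome 24 from 6133147 to 6158933) showed the same order of libraries within the mutants as slc17a6b. The wild-type libraries had 1139, 1074 and 1205 normalized counts, the mutant libraries 1785, 1025 and 1623, and mutant replicate 2 was the lowest library of all. Its means were 1139 ± 65.4 and 1478 ± 400.4 (SD, n = 3 each), and limma gave 0.34 as the log2 fold change (standard error 0.14, 95% interval 0.01 to 0.66, unadjusted p = 0.0453, adjusted p = 0.346).

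slc32a1 (ENSDARG00000059775, chromosome 6 from 60142619 to 60147517) was the 1 gene of the 7 whose mutant libraries all lay above all wild-type libraries. The wild-type libraries held 706, 767 and 713 normalized counts of it and the mutant libraries 1059, 787 and 1058, so that the margin between the groups came down to the replicate 2 libraries. The means were 729 ± 33.4 and 968 ± 157 (SD, n = 3 each), which gave 0.40 as the log2 fold change (standard error 0.13, 95% interval 0.09 to 0.70, unadjusted p = 0.0173, adjusted p = 0.256 from limma). An exact two-sided permutation test over the 6 libraries, with no replicate term and no pairs, gave p = 0.1 for slc32a1. This is the smallest value that 3 pools against 3 allow, and any gene without overlap receives it. The test gave 0.2 to 1 for the other genes.

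Across the 7 genes, limma called 0 at an adjusted p under 0.05, where it called 0.0986% of all genes tested. The 21 genes called (5 or 0.0235% higher and 16 or 0.0751% lower in mutants) became 47 (10 higher and 37 lower) when the replicate number was a block, and the 7 genes stayed uncalled in that fit, with edgeR and with DESeq2. At an unadjusted p under 0.05, 4 of the 7 were higher (slc17a6b, gad1b, slc32a1 and gad2) and 0 lower, against 6.1% of all genes higher and 7.9% lower. The median log2 fold change was 0.34 over the 7 genes and 0.01 over all genes tested. The count of 4 changed when single libraries were left out. It was 1 without replicate 1 of either genotype or replicate 3 of the mutants, each left out alone, and 2 without wild-type replicate 3. Without replicate 2 of either genotype, each left out alone, the count was 5. Fewer libraries enter these fits, and why the count changed was not tested. The count was also 1 in a fit with no replicate 2 term. All mutant libraries lay above all wild-type ones for 5.07% of all genes and below them for 4.55%, beside 1 and 0 of the 7 here.

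The 2 closest measured relatives did not differ detectably. slc17a8, the vesicular glutamate transporter VGLUT3, which zebrafish hair cells need, averaged 47.1 ± 11.4 normalized counts in the wild-type and 49.0 ± 11.3 in the mutant pools (SD, n = 3), and its log2 fold change was 0.06 with an adjusted p of 0.924 from limma. gad1a, the second copy of the GAD67 gene, averaged 41.7 ± 6.00 and 39.7 ± 8.51 normalized counts (limma log2 fold change −0.08, adjusted p = 0.899).

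Mutant and wild-type libraries of the same replicate number were then set side by side. The mutant to wild-type ratio of gad1b was 1.72 in replicate 1 (95% counting interval 1.62 to 1.83), 1.01 in replicate 2 (0.941 to 1.09) and 1.52 in replicate 3 (1.44 to 1.61). Those of gad2 were 1.57, 0.954 and 1.35, and those of slc32a1 were 1.50, 1.03 and 1.48. In each of these GABA genes the ratio in replicate 2 had a counting interval that included 1, and the other intervals lay above it. slc17a6b had ratios of 1.55, 1.11 and 1.33, and it alone of the 7 had all 3 counting intervals above 1. slc17a7a turned direction, with 1.94, 0.582 (0.427 to 0.794) and 1.50. slc17a6a turned as well, from 1.13 in replicate 1 (1.02 to 1.25) to 0.863 in replicate 2 (0.767 to 0.97). Its replicate 3 interval included 1, as did all 3 intervals of slc17a7b. The ratios were above 1 in all 3 replicates for slc17a6b, gad1b and slc32a1, where 21.1% of all genes did the same.

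**Figure D2:**
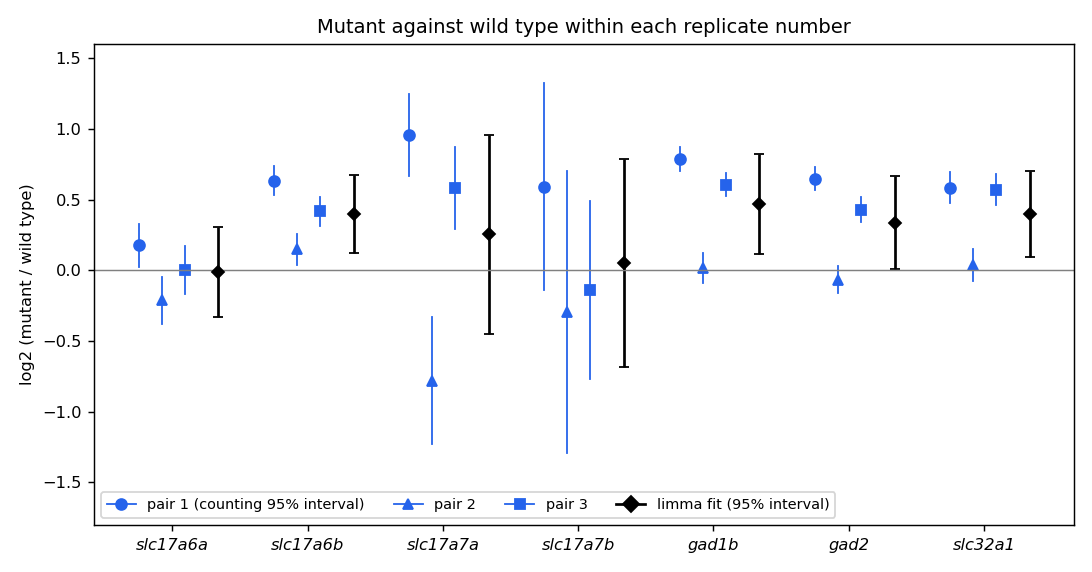
Log2 ratio of mutant to wild type for each gene in replicate numbers 1, 2 and 3 (blue, with the 95% interval of counting error alone) and the log2 fold change of the limma fit (black, with its 95% interval). The replicate 2 ratio is the lowest of the 3 for every gene and lies near 0 for gad1b, gad2 and slc32a1. It lies below 0 for slc17a7a, slc17a6a and slc17a7b, and only the interval of slc17a7b includes 0 among these.

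Without both replicate 2 libraries, the log2 fold changes came to 0.69 for gad1b (unadjusted p = 0.00187, adjusted p = 0.219 from limma), 0.58 for slc32a1 (adjusted p = 0.226) and 0.54 for gad2 (adjusted p = 0.246). They were 0.52 for slc17a6b (adjusted p = 0.265) and 0.76 for slc17a7a (95% interval 0.30 to 1.23, adjusted p = 0.256). slc17a6a stood at 0.09 in this comparison, so its sign turned, within its error. At an unadjusted p under 0.05, 5 of the 7 were then higher, and 0 lower, against 5.68% of all genes higher and 6.3% lower (12% together), and 0 were called at an adjusted p under 0.05, as for all genes (0%). In a limma fit across all genes, a term for the difference of the genotype effect in replicate 2, chosen after the values had been seen, was −1.53 for slc17a7a, −0.68 for gad1b, −0.61 for gad2, −0.54 for slc32a1 and −0.38 for slc17a6b. The unadjusted p was under 0.05 for the first 4 of these and not for slc17a6b. An unadjusted p under 0.05 together with a smaller effect in replicate 2 was found for 2.47% of all genes, and no gene passed after adjustment.

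The limma fit also gave each gene a term for replicate 2 against the other replicates, averaged over both genotypes. The replicate 2 term was −1.25 for slc17a7a, −1.10 for slc17a7b and −0.71 for gad1b on the log2 scale, and closest to 0 for slc32a1 (−0.16) and slc17a6a (−0.23). Its median was −0.43 over the 7 genes and −0.00 over all genes tested. All 7 terms were negative. For slc32a1 this came from the mutant libraries, since wild-type replicate 2 (767 normalized counts) was the highest of its wild-type libraries. Of the transcription factors tested, the term was positive for 16 of 18 of GABA neurons (median 0.59) and for 15 of 18 of glutamate neurons (median 0.56).

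Ratios between genes within a library were taken with 1 added to both terms, and so depend on the size factor only slightly. Without the added 1, the mean of slc17a6a to slc17a6b was 0.479 in wild type and 0.360 in mutants. slc17a6a to slc17a6b was 0.522, 0.495 and 0.423 in the wild-type libraries and 0.380, 0.385 and 0.318 in the mutant libraries. All mutant ratios were below all wild-type ratios, replicate 2 included, with means of 0.480 ± 0.0509 and 0.361 ± 0.0374 (SD, n = 3 each). Of all genes tested, 19.4% had a ratio to slc17a6b, here without the added 1, that was lower in every mutant library than in every wild-type library. slc17a6a thus shared this with many genes. gad1b to gad2 was 0.927, 0.813 and 1.01 in wild type and 1.02, 0.862 and 1.14 in mutants, with overlapping groups.

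The balance of excitatory to inhibitory markers overlapped between the genotypes. slc17a6b to slc32a1 had a mean of 1.11 ± 0.131 in the wild-type and 1.11 ± 0.0503 in the mutant pools (SD, n = 3 each). The summed counts of the 4 glutamate transporters to slc32a1 gave 1.84, 1.56 and 1.94 in wild type and 1.77, 1.52 and 1.64 in mutants. At each replicate number this sum ratio was lower in the mutant, whereas slc17a6b to slc32a1 was higher in mutant replicates 1 and 2 and lower in 3. Neither pattern was tested.

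**Figure D3:**
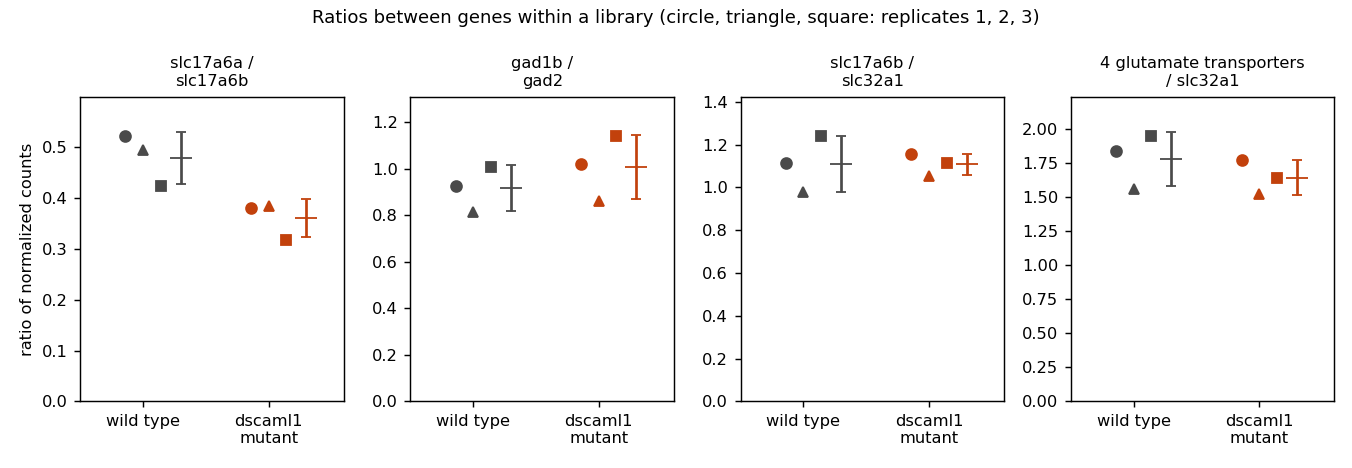
Ratios of normalized counts within each library, with 1 added to both terms. Circles, triangles and squares are replicates 1, 2 and 3, bars give the mean and SD of 3 pools, and axes start at 0. slc17a6a to slc17a6b separates the genotypes, at 0.423 to 0.522 in wild type and 0.318 to 0.385 in mutants, and the other 3 ratios overlap.

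Over the 6 libraries the genes followed each other to different degrees. As a description, Pearson's r of the log2 values was 0.98 between gad1b and gad2, 0.96 between slc17a6b and either of them, and 0.92 between slc17a6b and slc32a1. The lowest of the 21 pairs were slc17a6a with slc32a1 (0.39) and slc17a7b with slc32a1 (0.40). All pairs share the same 6 libraries, with replicate 2 apart, so these values carry no test. Of 13420 genes with a mean of at least 100, 352 followed the mean profile of the 7 with an r above 0.9. The 5 closest outside the 7 were unm_hu7912 (r = 0.997), nlgn2a (0.996), which encodes the neuroligin of inhibitory synapses, brox (0.996), osbp2 (0.993) and slc6a1a (0.989), a GABA reuptake transporter.

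The pathway around the 7 genes was examined through lists of genes, in which limma called no gene of a neural list at an adjusted p under 0.05. DESeq2, which called 3.19% of the genes it adjusted, called 1 gene of glutamate synthesis, recycling and uptake (glulb) and 1 glutamate neuron transcription factor (pou4f2), both higher in mutants, whereas edgeR called 0 in these lists. The list of glutamate synthesis, recycling and uptake held 16 tested genes, with a median log2 fold change of 0.13. At an unadjusted p under 0.05, 2 were higher and 0 lower (6.1% and 7.9% of all genes). They were glulb, which encodes glutamine synthetase, with means of 7228 ± 1675 normalized counts for wild type and 10729 ± 2916 for mutants (SD, n = 3; limma log2 fold change 0.56, adjusted p = 0.133), and slc1a7b, a glutamate transporter of the retina, at 10.9 ± 6.41 and 25.1 ± 11.1 (limma log2 fold change 1.14, adjusted p = 0.247). The other glutamine synthetase genes, glula and glulc, had log2 fold changes of 0.45 and 0.37 and did not pass either threshold.

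In limma, an unadjusted p of 0.05 was passed by 14% of all genes and by none of the 6 genes of GABA uptake and breakdown. Their median log2 fold change was 0.09, with 0.25 for slc6a1b and 0.20 for slc6a1a, the GABA transporters of the GAT1 type, 0.13 for abat, which breaks GABA down, and −0.24 for slc6a11a, a GAT3 type transporter. The 6 genes of glycine and acetylcholine neurons also gave 0 in either direction. Among them were chata, which makes acetylcholine (0.34), the acetylcholine transporters slc18a3b (0.72) and slc18a3a (0.20), and the choline transporter slc5a7a (0.25). The glycine transporters slc6a5 and slc6a9 stood at −0.22 and −0.05.

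Transcription factors that specify the neuron classes were tested for 18 genes in each class. The GABA class had a median of 0.01. In it 1 gene was higher and 0 lower at an unadjusted p under 0.05 (6.1% and 7.9% of all genes). That gene was tal1 (0.30), which blood progenitors also express, while arxa and dlx2a stood at −0.30 and −0.27 and lhx6 at 0.20 without passing. In the glutamate class 4 were higher and 0 lower, beside the same shares of all genes, and the median was 0.07. neurod2, a bHLH factor of differentiating neurons, was at 97.0, 110.1 and 81.6 normalized counts in the wild-type libraries and at 127, 143 and 139.8 in the mutant libraries. Its groups did not overlap, as for 5.07% of all genes in this direction (limma log2 fold change 0.51, adjusted p = 0.217). The others were pou4f2 (0.53), a factor of retinal ganglion cells, neurod6a (0.42) and lhx9 (0.27), with adjusted p of 0.178, 0.187 and 0.355 from limma.

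**Figure D4:**
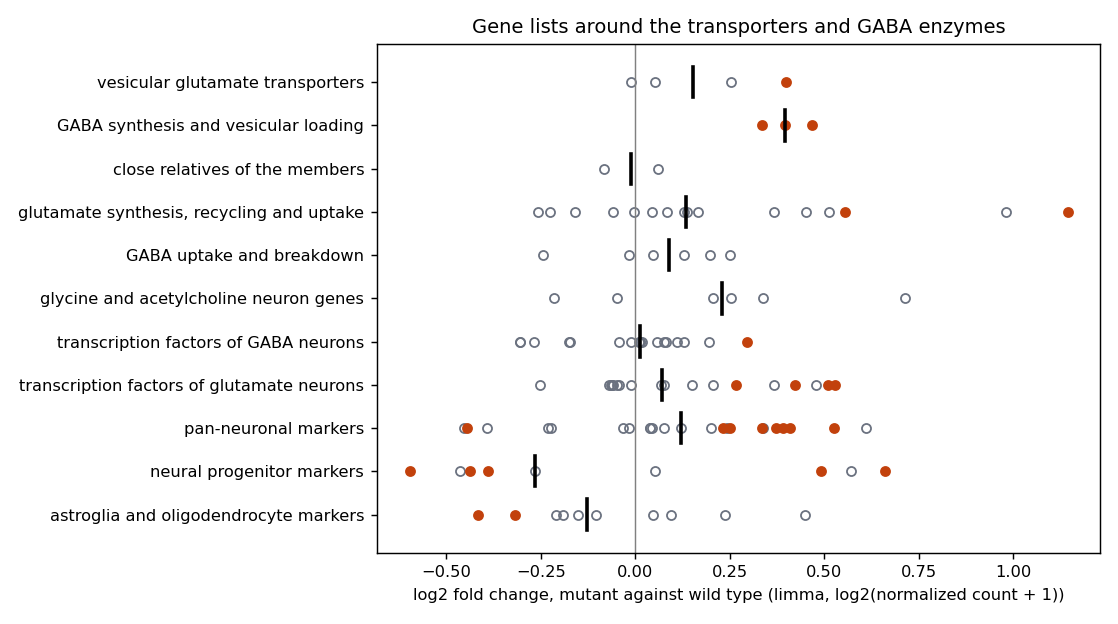
Log2 fold change, mutant against wild type, of every tested gene in 11 lists, 1 point per gene (filled where the unadjusted limma p is under 0.05), with a black bar at the list median. The GABA synthesis and loading genes lie between 0.34 and 0.47, whereas the medians of the 2 transcription factor lists are 0.01 and 0.07.

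Several general neuronal genes also had higher mean levels in mutants, and their part in the result was not tested. Of 23 tested pan-neuronal markers, 7 were higher and 1 lower at an unadjusted p under 0.05 (6.1% and 7.9% of all genes). The median was 0.12, with 16 positive and 7 negative fold changes. The lower gene was nefma, a neurofilament gene (−0.44, adjusted p = 0.312 from limma). Another neurofilament gene, nefmb, stood at −0.39 without passing. Genes of the synaptic vesicle release machinery led the list. snap25a, a SNARE protein of vesicle fusion, was at 3488, 3314 and 3146 normalized counts in the wild-type libraries and at 4666, 3838 and 4577 in the mutant libraries. Its groups did not overlap, as for 5.07% of all genes in this direction, and its log2 fold change was 0.39 (adjusted p = 0.178 from limma). syn2a (0.41), sypa (0.37) and snap25b (0.53), which encode a synapsin, a synaptophysin and a second SNAP25, had adjusted p of 0.203, 0.265 and 0.273 from limma. Mutant replicate 2 lay within the wild-type range for sypa (3363 normalized counts) and snap25b (884), and above it for syn2a (1112).

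The early neuronal marker elavl3 in replicates 1 and 3 was at 1973 and 2244 normalized counts for wild type and at 1960 and 1852 for mutants, against 4138 and 3130 in the replicates 2. The whole pan-neuronal list summed to 29753 to 38697 normalized counts in wild type and 35907 to 39272 in mutants, with stmn1b and nefla of its 25 genes listed at 0 in every library. Neural progenitor markers summed to 18629 and 17786 in the wild-type and mutant replicates 2 and to 10039 to 12020 in the other 4 libraries, with sox2 and sox3 listed at 0 in every library.

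Markers of other cell types were read in the same way, and their part in the result was not tested. The 11 photoreceptor genes, of which 0 were listed at 0 throughout, summed to 754, 5005 and 2115 normalized counts in the wild-type libraries and to 5333, 1046 and 3772 in the mutant libraries. Hepatocyte markers, with 4 of 8 called lower in mutants (0.0751% of all genes), summed to 41135 to 59553 in wild type and 18028 to 35832 in mutants. Skeletal muscle markers summed to 358747 and 362667 in mutant replicates 1 and 3 and to 303257 and 298699 in the wild-type ones, with the lowest value, 116762, in mutant replicate 2. Epidermis markers ran the other way within the mutants, with sums of 287123 and 219651 in replicates 1 and 3 and 507058 in replicate 2. Their wild-type sums were 322424 to 435097.

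**Figure D5:**
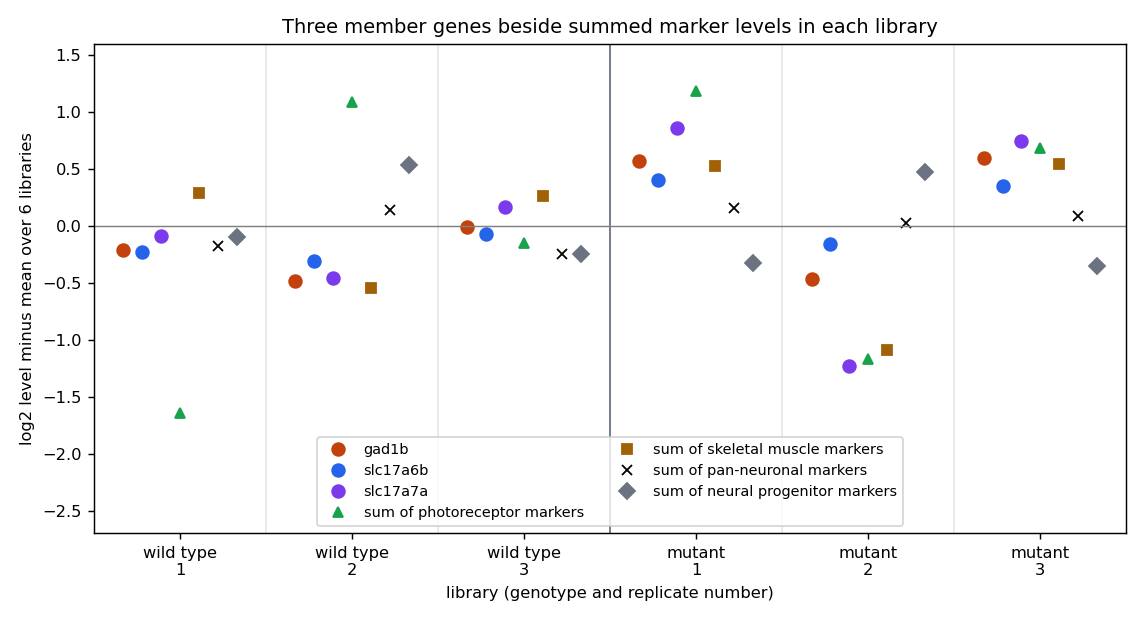
Log2 level of 3 of the genes and of the summed marker lists in each library, as the difference from the mean over the 6 libraries. gad1b, slc17a6b and slc17a7a are highest in mutant replicates 1 and 3, where the skeletal muscle sum is also highest; the pan-neuronal sum spans a narrower range, and the progenitor sum is highest in both replicates 2.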

How the data were processed

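RNA was measured in 6 libraries, 3 per genotype, grouped by the sample labels; the number of sample columns without a label was 0. Stranded mRNA libraries were sequenced on a NextSeq according to the methods. TopHat2, HISAT2, HTSeq and GRCz11 are named in the submitters' processing notes; what each did, and its version, is not given in the sources used here. Deposited signal values are counts per gene after the authors scaled each library by 1 size factor; dividing by what 1 read is worth left whole reads for 100% of them (tolerance 0.001 reads). The authors' own log2 fold changes, p-values and test statistic (a score), also deposited, were not used, and neither were their 3 short tables, which repeat rows of the table of all genes.

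The values being scaled, the test was limma 3.58.1 (R 4.3.3) using log2(value + 1) and a trend of variance on mean, which scale understates changes of low genes, with 3 residual and a median of 4.65 prior degrees of freedom. The replicate 2 term follows earlier processing of these files; the methods name the DESeq2 likelihood ratio test and no such term. edgeR 4.0.16 and DESeq2 1.42.0 were run on the recovered reads. Alternatives covered the term, a replicate block, the pseudocount, the filter, TMM scaling and left-out libraries. Same-numbered libraries deviated together (r of deviations from the genotype means 0.65, 0.86 and 0.70), and the numbers were taken as pairs. Replicates 1 and 3 of opposite genotypes also correlated (0.50 and 0.35), while replicate 2 ran against both (−0.62 to −0.74). Deviations within a genotype sum to 0, so these negative values follow from the likeness of the replicates 2 and add nothing to it. The positive values among replicates 1 and 3, same-numbered ones included, follow from it in part. They are therefore weak grounds for pairing replicates 1 and 3 by number. The labels state no shared clutch or day. No 2 libraries of a genotype agreed within sampling noise (chi-square divided by its degrees of freedom was 22.15 or more), and p-values reflect only how these pools varied. Counting intervals and errors cover counting error only.

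The 7 genes and the lists were chosen with earlier results of these data known. The text names the 7 genes, their relatives, dscaml1, up to 4 genes of each pathway, transcription factor and pan-neuronal list with the lowest unadjusted p, and the 5 genes closest to the mean profile. The genes elavl3, nefma, nefmb, slc6a5, slc6a9 and those listed at 0 were named after their values were seen. Gene identity and coordinates were read from the deposited table (GRCz11), and symbols gad3, slc6a13, chatb, lhx6a and tlx3a found no match there. No sequence was used.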

Additional observations from a re-analysis of the deposited data

How the results depend on the processing

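None of the 7 genes was called at an adjusted p under 0.05 under any alternative run (limma, edgeR and DESeq2). slc17a6b, gad1b, gad2, slc32a1 and slc17a7a had positive log2 fold changes throughout, with ranges of 0.32 to 0.52, 0.35 to 0.69, 0.24 to 0.54, 0.34 to 0.58 and 0.04 to 0.76; their adjusted p ranged from 0.122, 0.148, 0.233, 0.191 and 0.256 up to 1. In this balanced design the fits without the replicate 2 term, with the block or with another filter leave the limma fold as it was, and leaving out either or both replicate 2 libraries gives 1 and the same fold, so fewer alternatives than were run bear on it. slc17a6a turned to 0.0893 with both replicate 2 libraries removed and ranged from −0.13 to 0.09 with single libraries left out (0.0893 at the highest), and slc17a7b ranged from −0.24 to 0.26 with single libraries left out. The number of the 7 at an unadjusted p under 0.05, 4 in the report, was 1 with no replicate 2 term in limma and 1 in DESeq2 with no such term (added after seeing the data), 4 with the replicate block, and 1 to 5 with single libraries left out.

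Genes called higher and lower in mutants, 5 and 16 in the report, were 0 and 0 with no replicate 2 term, 10 and 37 with the replicate block, 190 and 400 with DESeq2 and 0 and 0 with both replicate 2 libraries removed; with single libraries left out they ran from 0 to 1 and from 0 to 11. Fewer libraries enter the fits that leave some out; otherwise the cause was not tested. The replicate block changed no other call. Depth limits slc17a7b most, at 14 to 48 reads per library, and DESeq2 left its adjusted p undefined.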

Other observations

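Progenitor and glial genes, which are not transmitter genes, gave a mixed picture beside the 7. The 10 symbols of neural progenitor markers matched 11 gene identifiers, so a symbol with more than 1 identifier is counted more than once. Of the 9 identifiers tested, 2 were higher and 3 lower in mutants at an unadjusted p under 0.05 (6.1% and 7.9% of all genes) and 0 at an adjusted p from limma. Their median log2 fold change was −0.27. mki67, a marker of dividing cells, stood at −0.60 (adjusted p = 0.259 from limma), the Notch receptor genes notch1b and notch1a at −0.44 and −0.39, and the Notch target genes her4.2 and her4.1 at 0.66 and 0.49. Of 10 astroglia and oligodendrocyte markers, gfap (−0.42, adjusted p = 0.168 from limma) and sox10 (−0.32) were lower at an unadjusted p under 0.05 and 0 were higher. DESeq2 called her4.2 higher and notch1b and gfap lower at an adjusted p under 0.05, and edgeR called none of them.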
